A study of Rattus norvegicus with 9 samples.

Results

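The oligodendrocyte lineage genes of cultured neural stem cells (NSCs) were examined as a list of 34 genes, of which 32 had a row among the 23953 genes of the count table. Ermn and Cd9l were not analysed here. The NCBI gene numbers given with the genes are those of the table and belong to mouse genes. The genes were divided into stages by general knowledge: 8 precursor genes, 6 genes of committed, not yet myelinating cells, and 20 genes of myelin and mature oligodendrocytes. The NSCs, labelled as coming from the spinal cords of rats and described as neonatal, were kept in differentiation medium containing serum and growth factors in all groups. The Con group received this medium alone. To the medium of the Exo group were added exosomes, small vesicles released by cells, of bone marrow mesenchymal stem cells (BMSCs) of rats. The cells labelled pLV-Exo-Wnt5a were given exosomes of BMSCs that overexpressed Wnt5a from a lentiviral vector. Each group had 3 RNA-seq libraries with 1 shared batch label. By the study's methods, the donor BMSCs of the Exo group carried the empty lentiviral vector, which the GEO labels do not state. Nothing in the labels says that the 3 libraries came from separate cultures, so p-values measure the spread between these libraries, which may be technical. Wnt5a was overexpressed by the BMSCs that gave the exosomes, so the level of Wnt5a in these libraries is no check of the labels.

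Oligodendrocytes arise from precursor cells that carry the receptor Pdgfra and the proteoglycan Cspg4 (NG2) under the transcription factors Olig1, Olig2, Sox10 and Nkx2-2. As the precursors leave the cell cycle they pass through a transient stage marked by Gpr17, Bcas1 and Enpp6, and Myrf then switches on the genes of myelin, the lipid-rich sheath around axons. Myelin proteins and the enzymes of its lipids appear in sequence, with Mbp, Mag and Cnp before late products such as Mog, Mobp and Opalin.

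Levels are given as CPM, the count of a gene scaled to a fixed library total after TMM normalization, a correction for library composition. CPM is not divided by gene length, so levels are compared between libraries and not between genes. Total counts lay between 32765138 and 40427647 per library, and a count of 0 allows up to 3 counts by counting error alone, or 0.0742 to 0.0916 CPM. Of the 34 genes, 29 had enough counts to be tested in all 3 comparisons, and Mog and Opalin were tested in none. Con replicate 1 stood apart: it held the highest value of the 9 libraries for 10 of the 29 genes and the lowest for 6 of them, against 26.7% and 30% of the 14811 genes tested in all comparisons. In these bulk libraries, fewer cells of a type and less RNA per cell cannot be told apart. Of the 14 listed Hox genes of the spinal cord, 4 had rows in the table, each with at most 2 counts in any library, whereas all 12 listed forebrain genes passed the filter. The labelled tissue is the spinal cord, and these values go against that label. The other 10 Hox genes were not analysed here.

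No member passed Q under 0.05 in any of the 3 comparisons in edgeR's quasi-likelihood test, where Q is the p-value adjusted over all genes tested by the Benjamini-Hochberg method and log2FC is the log2 fold change of the first named group over the second. The share of all genes that passed was 0.00664% for Exo versus Con, 0.436% for pLV-Exo-Wnt5a versus Exo and 0.0862% for pLV-Exo-Wnt5a versus Con. At an unadjusted p under 0.05, 8, 10 and 6 members passed in these comparisons, beside 14.9%, 12% and 8.35% of all genes in both directions. With DESeq2 in place of edgeR, 2, 2 and 0 members had an adjusted p under 0.05, where DESeq2 called 1.4%, 2.72% and 0.477% of all genes. They were Mbp and Mag, lower in the Exo than in the Con group, and, for pLV-Exo-Wnt5a versus Exo, Gpr17, which was lower, and Mag, which was higher. Each pair of comparisons shares the 3 libraries of 1 group. For the Exo group, a value that is low in its libraries appears as lower against Con and as higher in pLV-Exo-Wnt5a versus Exo.

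The precursor transcription factors were measured with many counts in every library. Olig1 (NCBI gene number 50914) was measured at 1139, 1010.3 and 1002 CPM in the Con libraries, 1066, 968 and 958 CPM in the Exo libraries and 899.5, 840.1 and 1035 CPM in the pLV-Exo-Wnt5a libraries. Olig2 (NCBI gene number 50913) was measured at 565, 518 and 511 CPM in the Con libraries, 538, 463 and 491 CPM in the Exo libraries and 449, 440.4 and 511 CPM in the pLV-Exo-Wnt5a libraries. For Olig1 the groups overlapped, whereas all 3 pLV-Exo-Wnt5a values of Olig2 were below the 3 Con values by a narrow margin, with a log2FC of -0.20 (standard error 0.09, unadjusted p = 0.0513, Q = 0.598). Sox10 (NCBI gene number 20665), which with Olig2 keeps cells in the lineage, was measured at 268, 208 and 216 CPM in the Con libraries, 199.5, 183 and 198 CPM in the Exo libraries and 188, 208 and 188 CPM in the pLV-Exo-Wnt5a libraries. Con replicate 1 was the highest of the 9 libraries for Sox10, and all Exo values were below all Con values. Its log2FC was -0.26 (standard error 0.10, unadjusted p = 0.0275, Q = 0.297) for Exo versus Con and -0.25 (standard error 0.11, unadjusted p = 0.0393, Q = 0.587) for pLV-Exo-Wnt5a versus Con. Without Con replicate 1 these were -0.14 (unadjusted p = 0.0386) and -0.12 (unadjusted p = 0.0886). Nkx2-2 (NCBI gene number 18088), a factor of the differentiation step, was measured at 63.5, 57.2 and 50.2 CPM in the Con libraries, 54.9, 47.2 and 48.6 CPM in the Exo libraries and 41.1, 45.97 and 49.7 CPM in the pLV-Exo-Wnt5a libraries. The lowest Con value lay just above the highest pLV-Exo-Wnt5a value, and the log2FC between these groups was -0.33 (standard error 0.12, unadjusted p = 0.0164, Q = 0.529).

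Cspg4 (NCBI gene number 121021) was measured at 108, 102 and 89.6 CPM in the Con libraries, 106, 87.01 and 101 CPM in the Exo libraries and 84.7, 72.9 and 89.6 CPM in the pLV-Exo-Wnt5a libraries. The pLV-Exo-Wnt5a values of Cspg4 were below all 3 Con values, by a narrow margin, and overlapped the Exo values. Its log2FC was -0.29 (standard error 0.11, unadjusted p = 0.0209, Q = 0.541) against Con and -0.24 (standard error 0.091, unadjusted p = 0.0251, Q = 0.336) against Exo, the latter -0.16 (unadjusted p = 0.101) without pLV-Exo-Wnt5a replicate 2. Pdgfra (NCBI gene number 18595), the receptor for the growth factor that keeps precursors dividing, lay between 86.8 and 140.3 CPM over the 9 libraries with its lowest value in Con replicate 1. Its log2FC was 0.14, -0.089 and 0.042 in the 3 comparisons, with standard errors of 0.14, 0.10 and 0.13. Sox6 (NCBI gene number 20679), a factor that restrains differentiation, lay between 66.5 and 125 CPM, also lowest in Con replicate 1. Lhfpl3 (NCBI gene number 269629), a membrane protein gene used as a precursor marker, was measured at 11.99, 17.1 and 25.5 CPM in the Con libraries, 35.2, 29.8 and 21.9 CPM in the Exo libraries and 18.4, 17.2 and 24.5 CPM in the pLV-Exo-Wnt5a libraries. Exo replicates 1 and 2 were above all other libraries, and Exo replicate 3 overlapped the Con group. Its log2FC was 0.67 (standard error 0.25, unadjusted p = 0.0224, Q = 0.288) for Exo versus Con and -0.52 (standard error 0.17, unadjusted p = 0.0126, Q = 0.263) for pLV-Exo-Wnt5a versus Exo. The first was 0.44 (unadjusted p = 0.0478) without Con replicate 1.

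The committed gene Gpr17 had the smallest p of all members. Gpr17 (NCBI gene number 574402), a receptor that is present for a short time in cells on the way from precursor to myelinating oligodendrocyte, was measured at 691, 704 and 645 CPM in the Con libraries, 776, 656 and 708 CPM in the Exo libraries and 506, 565 and 590.4 CPM in the pLV-Exo-Wnt5a libraries. All 3 pLV-Exo-Wnt5a libraries were below all 6 other libraries. The log2FC was -0.35 (standard error 0.076, unadjusted p = 0.000798, Q = 0.0797) against the Exo group and -0.30 (standard error 0.088, unadjusted p = 0.00494, Q = 0.433) against the Con group. With DESeq2 the first had an adjusted p of 0.00324, and its Q was between 0.0022 and 0.264 over all alternatives. Exo and Con overlapped for Gpr17, with a log2FC of 0.059 (standard error 0.083, unadjusted p = 0.494, Q = 0.729). Bcas1 (NCBI gene number 76960), which marks the same transient stage, was measured at 334, 319.6 and 316 CPM in the Con libraries, 297, 308 and 310.3 CPM in the Exo libraries and 283, 363 and 308 CPM in the pLV-Exo-Wnt5a libraries. Its highest value was in pLV-Exo-Wnt5a replicate 2 and its lowest in pLV-Exo-Wnt5a replicate 1, and its Exo values were just below its Con values, with a log2FC of -0.092 (standard error 0.071, unadjusted p = 0.226, Q = 0.521). Enpp6 (NCBI gene number 320981), a lysophospholipase of newly formed oligodendrocytes, lay between 9.74 and 12.3 CPM, and Zfp488 (NCBI gene number 382867), a nuclear partner of Olig2, between 32.98 and 43.3 CPM, without separation of the groups.

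Myrf (NCBI gene number 225908), the factor that switches on myelin genes, was measured at 147, 129 and 122 CPM in the Con libraries, 114, 110.4 and 119 CPM in the Exo libraries and 121, 136 and 124 CPM in the pLV-Exo-Wnt5a libraries. Tcf7l1 (NCBI gene number 21415), a transcription factor of the Wnt pathway, was measured at 67.7, 55.00 and 59.8 CPM in the Con libraries, 50.5, 48.5 and 53.6 CPM in the Exo libraries and 56.4, 59.5 and 60.4 CPM in the pLV-Exo-Wnt5a libraries. For both, the 3 Exo values were below the values of the other 6 libraries. The log2FC of Myrf was -0.22 (standard error 0.089, unadjusted p = 0.0311, Q = 0.302) for Exo versus Con and 0.16 (standard error 0.064, unadjusted p = 0.0311, Q = 0.357) for pLV-Exo-Wnt5a versus Exo, and the first was -0.14 (unadjusted p = 0.0464) without Con replicate 1. That of Tcf7l1 was -0.27 (standard error 0.10, unadjusted p = 0.0246, Q = 0.293) and 0.22 (standard error 0.069, unadjusted p = 0.00873, Q = 0.225). Against the Con group, the pLV-Exo-Wnt5a values of both overlapped.

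**Figure D1:**
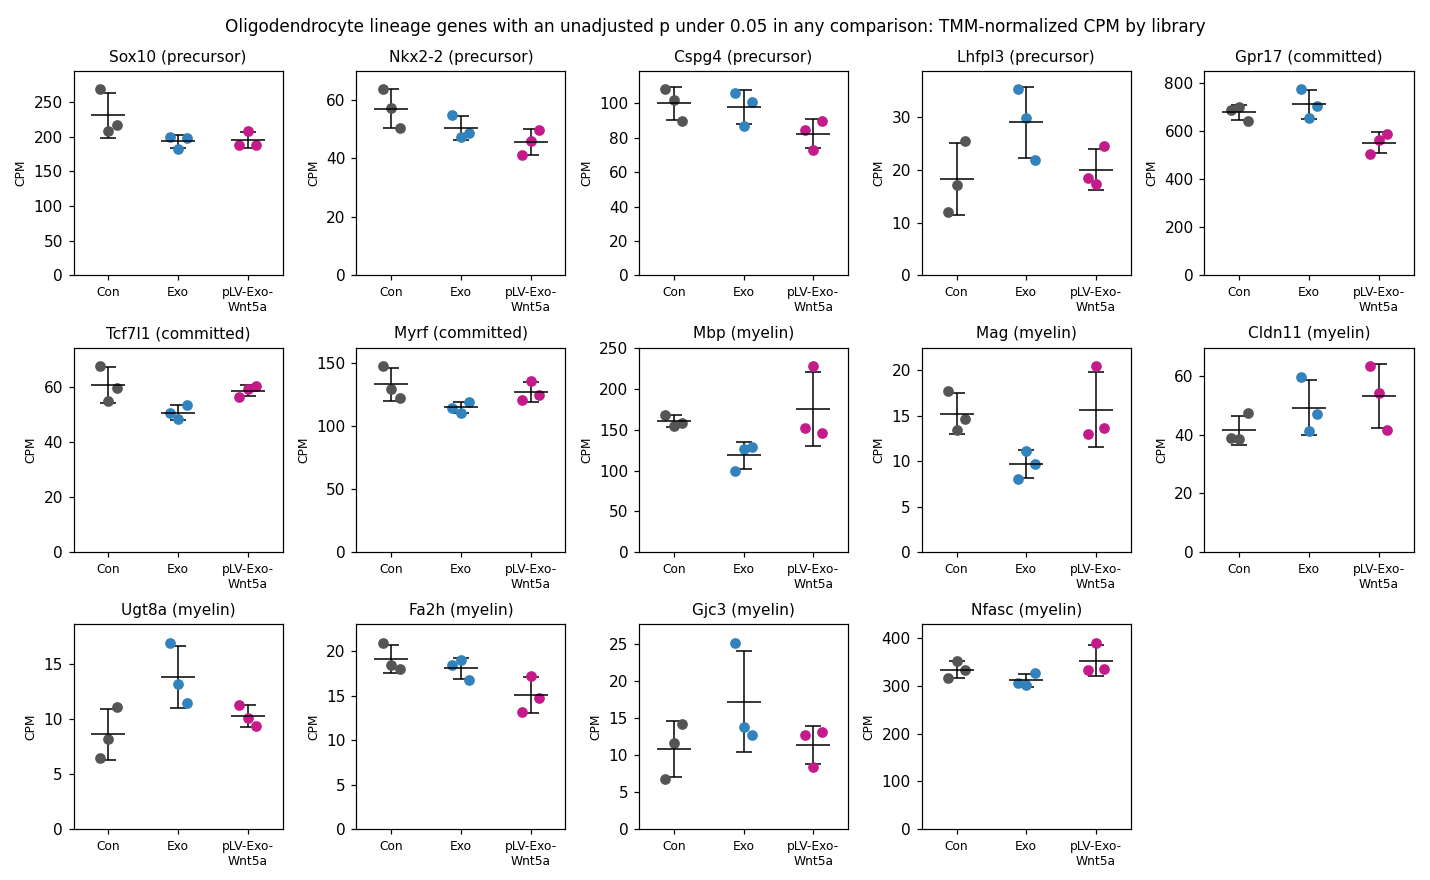
TMM-normalized CPM (vertical axes, linear from 0) by library and group (Con, Exo, pLV-Exo-Wnt5a) for the 14 members with an unadjusted p under 0.05 in any comparison; points are libraries, the long bar is the mean and the whiskers are 1 SD (n = 3). Gpr17 is lowest in the 3 pLV-Exo-Wnt5a libraries, and Mbp and Mag are lowest in the 3 Exo libraries.

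Of the myelin proteins, Mbp and Mag were lowest in the Exo libraries. Mbp (NCBI gene number 17196), which compacts the myelin membrane, was measured at 168, 155 and 158 CPM in the Con libraries, 99.97, 127 and 129 CPM in the Exo libraries and 152, 228 and 146 CPM in the pLV-Exo-Wnt5a libraries. Mag (NCBI gene number 17136), an adhesion protein on the inner face of the sheath towards the axon, was measured at 17.7, 13.4 and 14.6 CPM in the Con libraries, 8.09, 11.2 and 9.70 CPM in the Exo libraries and 12.97, 20.5 and 13.6 CPM in the pLV-Exo-Wnt5a libraries. For both genes all 3 Exo values were below the other 6 values. The lowest of all was Exo replicate 1 and the highest pLV-Exo-Wnt5a replicate 2. The log2FC of Mbp was -0.44 (standard error 0.11, unadjusted p = 0.00192, Q = 0.265) for Exo versus Con and 0.57 (standard error 0.16, unadjusted p = 0.00384, Q = 0.161) for pLV-Exo-Wnt5a versus Exo. That of Mag was -0.67 (standard error 0.17, unadjusted p = 0.00269, Q = 0.265) and 0.71 (standard error 0.19, unadjusted p = 0.00302, Q = 0.149). In both comparisons these 2 genes kept an unadjusted p under 0.05 in 6 of 6 fits with 1 library left out, although the log2FC of Mbp for pLV-Exo-Wnt5a versus Exo was 0.34 without pLV-Exo-Wnt5a replicate 2. Between the pLV-Exo-Wnt5a and Con groups the log2FC was 0.12 (standard error 0.15, unadjusted p = 0.427, Q = 0.831) for Mbp and 0.031 (standard error 0.19, unadjusted p = 0.873, Q = 0.972) for Mag.

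Cnp (NCBI gene number 12799), an enzyme of the membrane cytoskeleton that appears early, was measured at 872, 754 and 726 CPM in the Con libraries, 745, 663 and 681 CPM in the Exo libraries and 634, 724 and 698 CPM in the pLV-Exo-Wnt5a libraries. Con replicate 1 was the highest library, the pLV-Exo-Wnt5a values were below the Con values, and its log2FC was -0.20 (standard error 0.10, unadjusted p = 0.0635, Q = 0.617) between those groups. Cldn11 (NCBI gene number 18417), which forms the tight junctions of myelin, was measured at 38.9, 38.4 and 47.2 CPM in the Con libraries, 59.6, 41.3 and 46.9 CPM in the Exo libraries and 63.3, 54.3 and 41.6 CPM in the pLV-Exo-Wnt5a libraries. Its groups overlapped, and its log2FC for pLV-Exo-Wnt5a versus Con was 0.35 (standard error 0.15, unadjusted p = 0.0359, Q = 0.585). Without pLV-Exo-Wnt5a replicate 1 it was 0.20 (unadjusted p = 0.216). The late myelin genes had few counts. Mog had 0 to 11 counts per library, Opalin 2 to 31, Mobp 4 to 23 and Aspa, the enzyme that frees acetate for myelin lipids, 4 to 18. Mal (NCBI gene number 17153), a lipid raft protein of compact myelin, had 53 to 141 counts. Mog and Opalin were tested in no comparison, and Aspa was not tested in Exo versus Con. Where Mobp, Aspa and Mal were tested, no difference was detectable at this depth, with standard errors of the log2FC from 0.30 to 0.63.

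**Figure D2:**
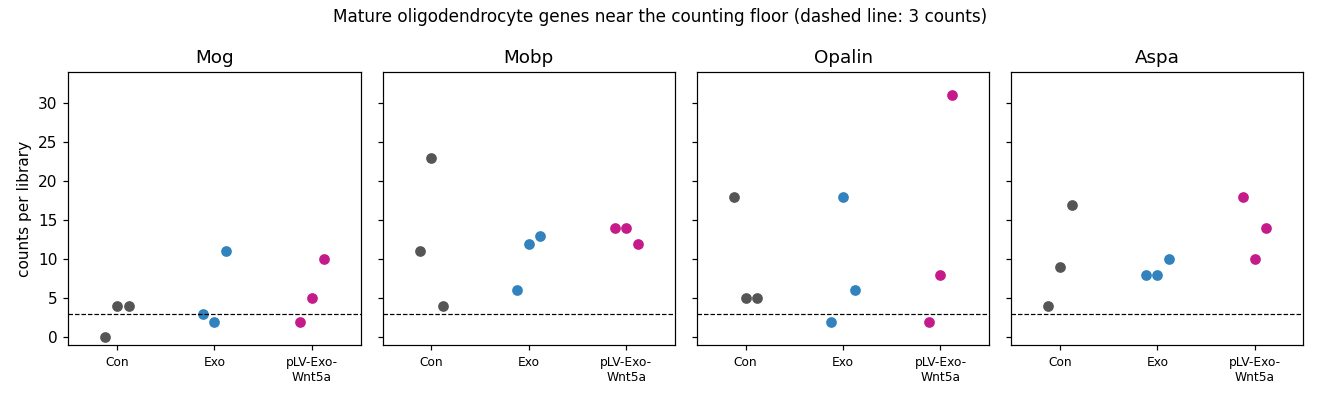
Deposited counts (vertical axis, not normalized) of Mog, Mobp, Opalin and Aspa in each library, by group (Con, Exo, pLV-Exo-Wnt5a); the dashed line marks 3 counts. Counts stayed at or below 31 in every library, and the groups overlapped for Mog, Mobp and Opalin, while the lowest pLV-Exo-Wnt5a CPM of Aspa was just above the highest Exo CPM.

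The enzymes of myelin lipids did not follow 1 pattern. Ugt8a (NCBI gene number 22239), which makes galactosylceramide, was measured at 6.49, 8.22 and 11.1 CPM in the Con libraries, 16.9, 13.2 and 11.4 CPM in the Exo libraries and 11.3, 10.1 and 9.35 CPM in the pLV-Exo-Wnt5a libraries. All 3 Exo values were above all values of the other libraries, although Exo replicate 3 exceeded the highest pLV-Exo-Wnt5a and Con values by little. Its log2FC was 0.68 (standard error 0.21, unadjusted p = 0.00888, Q = 0.265) for Exo versus Con and -0.42 (standard error 0.15, unadjusted p = 0.0171, Q = 0.298) for pLV-Exo-Wnt5a versus Exo. The latter was -0.26 (unadjusted p = 0.091) without Exo replicate 1. Fa2h (NCBI gene number 338521), which hydroxylates the fatty acids of these lipids, was measured at 20.9, 18.4 and 17.95 CPM in the Con libraries, 18.4, 19.1 and 16.8 CPM in the Exo libraries and 13.2, 17.2 and 14.8 CPM in the pLV-Exo-Wnt5a libraries. All pLV-Exo-Wnt5a values of Fa2h were below all Con values, with a log2FC of -0.35 (standard error 0.14, unadjusted p = 0.031, Q = 0.573). Gjc3 (NCBI gene number 118446), a connexin of myelinating glia, was measured at 6.77, 11.7 and 14.2 CPM in the Con libraries, 25.2, 13.8 and 12.8 CPM in the Exo libraries and 12.8, 8.45 and 13.1 CPM in the pLV-Exo-Wnt5a libraries. Exo replicate 1 alone was far above the others for Gjc3. Its log2FC of 0.66 (standard error 0.30, unadjusted p = 0.0499, Q = 0.335) for Exo versus Con was 0.29 without that library and 0.41 without Con replicate 1, and its log2FC of -0.58 (standard error 0.25, unadjusted p = 0.0392, Q = 0.385) for pLV-Exo-Wnt5a versus Exo was -0.21 without Exo replicate 1. Nfasc (NCBI gene number 269116), whose glial form anchors the myelin loops beside the node and whose other form lies on the axon, was measured at 317, 351 and 333 CPM in the Con libraries, 306, 302 and 326 CPM in the Exo libraries and 333, 389 and 336 CPM in the pLV-Exo-Wnt5a libraries. The pLV-Exo-Wnt5a values were above the Exo values, with a log2FC of 0.19 (standard error 0.07, unadjusted p = 0.0196, Q = 0.311). It was 0.12 (unadjusted p = 0.0962) without pLV-Exo-Wnt5a replicate 2.

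The promoters of Mag and Ugt8a are shown because these members lay on opposite sides in the Exo libraries. The sequences are the 250 bases before the RefSeq gene start in the rat build GRCr8, 5′ to 3′ on the strand of the gene, with matches of ACAATG or ACAAAG (the core of sites bound by SOX factors) or CAGCTG (an E-box, the kind of site bound by Olig factors) on either strand in capitals. The interval is chr1:95291045-95291294 (minus strand) for Mag and chr2:217007168-217007417 (minus strand) for Ugt8a, named Ugt8 in the rat.
Mag: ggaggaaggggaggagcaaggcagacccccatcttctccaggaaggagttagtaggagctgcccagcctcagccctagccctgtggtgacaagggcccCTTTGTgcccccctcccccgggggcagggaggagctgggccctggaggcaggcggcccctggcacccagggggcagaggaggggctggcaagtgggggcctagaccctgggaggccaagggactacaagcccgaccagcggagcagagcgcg
Ugt8a: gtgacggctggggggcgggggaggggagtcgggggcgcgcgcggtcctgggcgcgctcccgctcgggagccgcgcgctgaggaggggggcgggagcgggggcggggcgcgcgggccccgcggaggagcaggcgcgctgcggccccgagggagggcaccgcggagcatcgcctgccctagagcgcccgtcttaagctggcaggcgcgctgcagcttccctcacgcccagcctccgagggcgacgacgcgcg
The Mag window held 1 match to the SOX letters and 0 to the E-box, and the Ugt8a window held 0 of each. Of the 34 members, 25 were matched to a promoter of this table, and the SOX letters were found in 8 (32%) of them against 24.8% of all 27457 promoters. The E-box letters were found in 4 (16%) against 11.9%. A match of letters is a description of the sequence and not a bound site.

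The remaining members of the mature list had overlapping groups or small differences. Tspan2 (NCBI gene number 70747), a tetraspanin of early myelin, lay between 4.36 and 10.4 CPM, Enpp2 (NCBI gene number 18606), the secreted enzyme autotaxin, between 40.1 and 69.8 CPM, and Trf (NCBI gene number 22041), which carries iron, between 20.6 and 40.3 CPM. Gpr37 (NCBI gene number 14763), a receptor that restrains the last step of maturation, lay between 11.6 and 15.04 CPM. Its 3 pLV-Exo-Wnt5a values were just above the 3 Con values, with a log2FC of 0.13 (standard error 0.13, unadjusted p = 0.333, Q = 0.791). Qdpr (NCBI gene number 110391), a pteridine reductase found in many cell types, varied least of the 32 members, between 100.02 and 111 CPM.

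**Figure D3:**
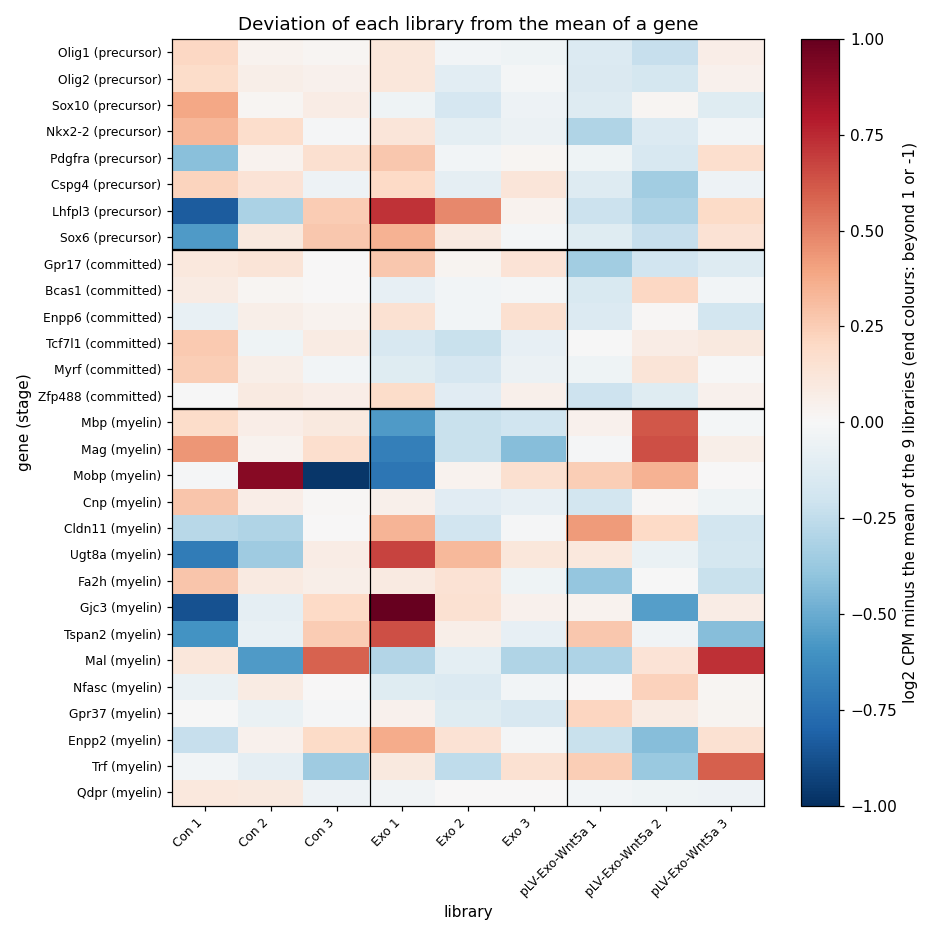
Log2 CPM (prior count of 2) of 29 members in each of the 9 libraries minus the mean over the 9 libraries, shown as colour, with the stages separated by horizontal lines and the groups by vertical lines; 1 of 261 values lies beyond the colour limits of 1 and -1. Lhfpl3, Sox6, Mbp, Mag, Ugt8a, Gjc3 and Tspan2 are among the members with opposite signs in Con replicate 1 and Exo replicate 1.

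The comparison of Exo with Con asks what exosomes without added Wnt5a change relative to medium alone. Most members with an unadjusted p under 0.05 were lower in the Exo group: Sox10, Tcf7l1, Myrf, Mbp and Mag were lower, and Lhfpl3, Ugt8a and Gjc3 were higher. These were 5 and 3 of 29 members tested (17.2% and 10.3%), against 6.01% and 8.92% of the 15070 genes tested. The libraries of the groups did not overlap for 6 members that were lower (20.7%), against 12.4% of all genes, and for 1 that was higher (3.45%), against 10.9%. The median log2FC was -0.061 for the precursor, -0.054 for the committed and -0.068 for the myelin members, against 0.002 for all genes, whose interquartile range was -0.14 to 0.23. With 1 library left out the precursor median lay between -0.12 and -0.015, the committed median between -0.074 and -0.029 and the myelin median between -0.089 and -0.018. Of the 8 members, Mbp, Mag and Ugt8a kept an unadjusted p under 0.05 in 6 of 6 such fits, Tcf7l1 in 4, and Sox10, Lhfpl3, Myrf and Gjc3 in 3. The count of 8 members fell to 3 when Exo replicate 1 was left out and to 5 when Con replicate 2 or Exo replicate 2 was left out. The share of all genes at this p, in both directions, fell as well, from 14.9% to 8.68%, 10.8% and 8.64%. Without Con replicate 3, 11 members passed beside 23.4% of all genes, and Lhfpl3 and Ugt8a had Q under 0.05 (0.0369 and 0.0423) beside 371 of 15449 genes.

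The comparison of pLV-Exo-Wnt5a with Exo asks what Wnt5a in the donor cells adds. The precursor genes Cspg4 and Lhfpl3, the committed gene Gpr17 and the myelin genes Ugt8a and Gjc3 were lower, while Myrf, Tcf7l1, Mbp, Mag and Nfasc were higher. Of 30 members tested, 5 were higher and 5 lower at an unadjusted p under 0.05 (16.7% each), against 5.07% and 6.91% of 15132 genes. Groups did not overlap for 6 members that were higher (20%), against 7.5% of all genes, and for 2 that were lower (6.67%), against 8.9%. Among the 6 was Aspa, with only 8 to 10 counts in the Exo and 10 to 18 in the pLV-Exo-Wnt5a libraries (unadjusted p = 0.184). The stages differed in sign: the median log2FC was -0.11 for the precursor members, -0.024 for the committed and 0.16 for the myelin members. The median of all genes was 0.0049, with an interquartile range of -0.13 to 0.096 that held the precursor and committed medians. With at least 10 counts in every library, which leaves out Mobp and Aspa, the myelin median was 0.056. Of the precursor members 7 of 8 had a log2FC below 0, of the committed 3 of 6 and of the myelin members 7 of 16. No test was made of these medians. Leaving out 1 library moved the precursor median between -0.20 and -0.059, the committed median between -0.068 and 0.045 and the myelin median between 0.051 (without Exo replicate 2) and 0.17. The count of 10 members was 5 without Exo replicate 1, where the share of all genes went from 12% to 8.55%. An unadjusted p under 0.05 was kept in 6 of 6 such fits by Gpr17, Tcf7l1, Mbp and Mag, in 5 by Lhfpl3, in 4 by Ugt8a, Gjc3 and Nfasc, and in 3 by Cspg4 and Myrf.

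The comparison of pLV-Exo-Wnt5a with Con sets the modified exosomes against medium alone. Sox10, Nkx2-2, Cspg4, Gpr17 and Fa2h were lower and Cldn11 higher at an unadjusted p under 0.05. These were 5 and 1 of 30 members tested (16.7% and 3.33%), against 4.15% and 4.2% of 15089 genes. Groups did not overlap for Olig2, Nkx2-2, Cspg4, Gpr17, Cnp and Fa2h, which were lower (20%, against 9.41% of all genes), and for Gpr37, which was higher (3.33%, against 7.67%). The median log2FC was -0.19 for the precursor, -0.095 for the committed and 0.071 for the myelin members, against 0.0041 for all genes, whose interquartile range was -0.12 to 0.15. Gpr17 alone kept an unadjusted p under 0.05 in 6 of 6 fits with 1 library left out, Nkx2-2 in 5, Cspg4 in 4, Sox10 in 3, and Cldn11 and Fa2h in 2. The count of 6 members was 2 with pLV-Exo-Wnt5a replicate 1 left out, 3 with Con replicate 2 left out and 10 with Con replicate 3 left out. The share of all genes was 4.07%, 6.13% and 14.4% in these fits, and 8.35% with all libraries. The myelin median lay at -0.0050 when Con replicate 1 was left out, and at 0.13 when Con replicate 3 was.

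**Figure D4:**
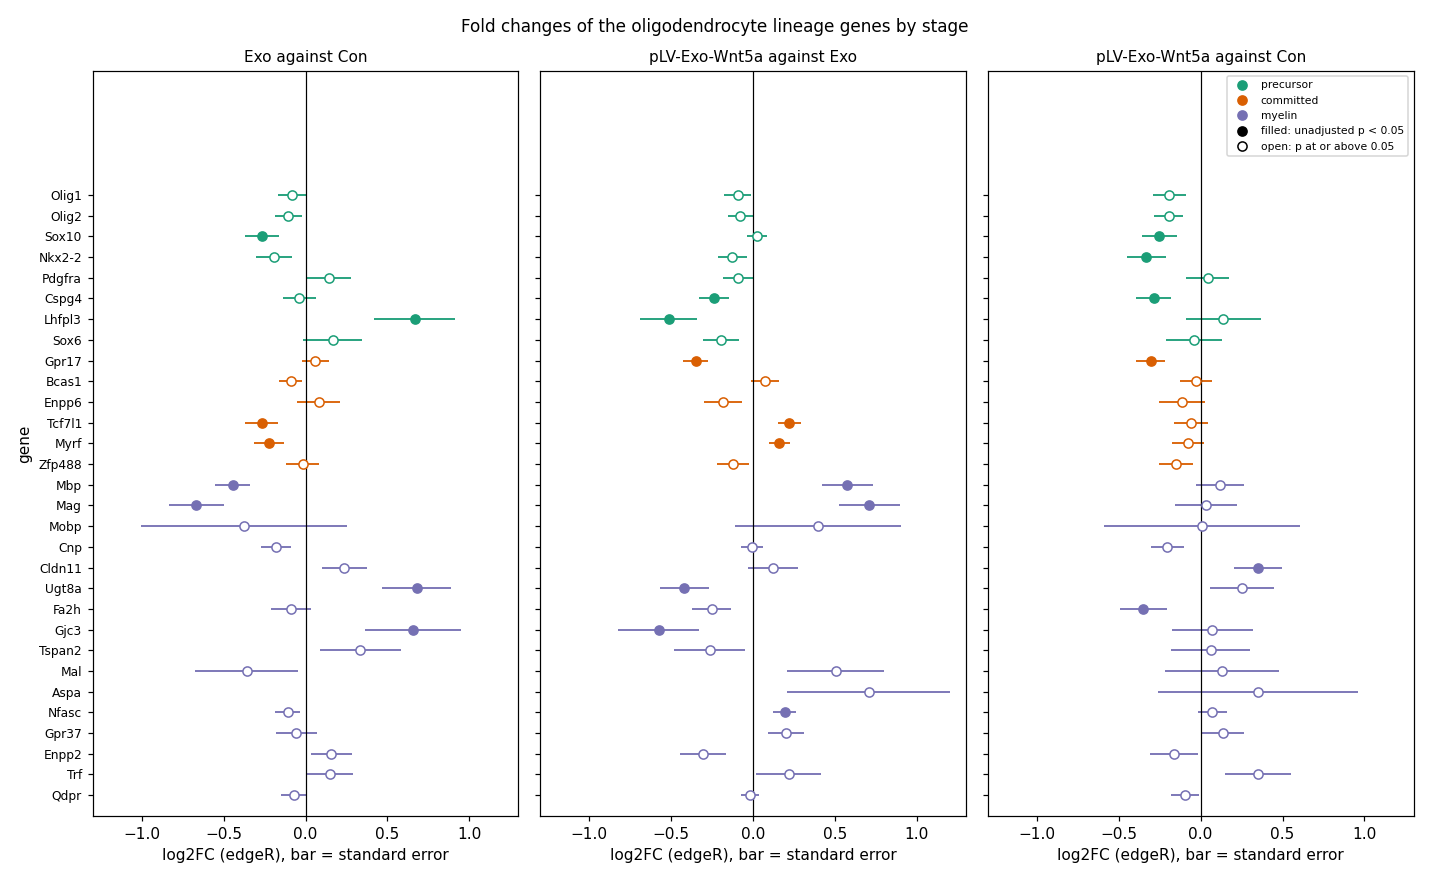
Log2FC with its standard error (horizontal axes) from edgeR's quasi-likelihood test for each member tested in the 3 comparisons, coloured by stage; filled points have an unadjusted p under 0.05, and no point has Q under 0.05. Mbp and Mag lie left of 0 in Exo versus Con and right of 0 in pLV-Exo-Wnt5a versus Exo, where 7 of 8 precursor members lie left of 0.

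The summed CPM of a stage follows its most abundant members. In the order Con, Exo and pLV-Exo-Wnt5a, the 8 precursor members summed to 2197 ± 97.0, 2098 ± 146 and 1945 ± 171 CPM (SD, n = 3 each), and the highest pLV-Exo-Wnt5a sum (2137 CPM) lay inside the Exo range and just below the lowest Con sum (2138 CPM). Scaled to total counts without TMM factors, that library was at 2183 CPM and the lowest Con library at 2137 CPM, so the groups overlapped. The 6 committed members summed to 1248 ± 48.4, 1235 ± 62.0 and 1104 ± 84.0 CPM. The highest pLV-Exo-Wnt5a value and the lowest Exo value were both 1169 CPM. All 3 pLV-Exo-Wnt5a values (1009 to 1169 CPM) were below the 3 Con values (1194 to 1289 CPM). Without TMM factors the highest pLV-Exo-Wnt5a value was 1173 CPM and the lowest Con value 1198 CPM. The 18 myelin members summed to 1581 ± 63.1, 1447 ± 53.3 and 1523 ± 103 CPM. All 3 Exo values were below the 3 Con values, from 1398 to 1504 CPM against 1529 to 1652 CPM, and the pLV-Exo-Wnt5a values overlapped both.

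Further genes of the lineage, a list of 28 with 25 tested in each comparison, had members on both sides of 0. In Exo versus Con, 1 was higher and 3 were lower at an unadjusted p under 0.05 (4% and 12%, against 8.92% and 6.01% of all genes). In pLV-Exo-Wnt5a versus Exo 2 were higher and 6 lower (8% and 24%, against 5.07% and 6.91%). In pLV-Exo-Wnt5a versus Con 1 was higher and 6 lower (4% and 24%, against 4.2% and 4.15%). By edgeR 0 had Q under 0.05 in each comparison. DESeq2 called 0, 6 and 0 of the 25, beside 1.4%, 2.72% and 0.477% of all genes. The median log2FC of this list was -0.0086, -0.013 and -0.12. Omg, a glycoprotein of oligodendrocytes and neurons, was measured at 19.9 ± 3.17, 22.02 ± 1.23 and 15.6 ± 1.46 CPM in the order Con, Exo, pLV-Exo-Wnt5a (SD, n = 3 each), with a log2FC of -0.48 (standard error 0.10, unadjusted p = 0.000616, Q = 0.0695) for pLV-Exo-Wnt5a versus Exo. Ptprz1, a receptor phosphatase of precursors and astrocytes, was measured at 273 ± 54.5, 313 ± 30.6 and 229 ± 32.3 CPM in the same groups, with a log2FC of -0.44 (standard error 0.10, unadjusted p = 0.00123, Q = 0.0983). Vcan, a proteoglycan of the precursor matrix, gave -0.54 (standard error 0.13, unadjusted p = 0.00154, Q = 0.111) in this comparison. Adamts4, a protease of myelinating oligodendrocytes, was lower in the Exo group and higher in the pLV-Exo-Wnt5a group, as Mbp and Mag were. It was measured at 29.8 ± 1.17, 22.7 ± 2.05 and 32.4 ± 4.48 CPM, with a log2FC of -0.40 (standard error 0.11, unadjusted p = 0.00404, Q = 0.265) for Exo versus Con and 0.53 (standard error 0.11, unadjusted p = 0.000824, Q = 0.0815) for pLV-Exo-Wnt5a versus Exo.

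Markers of other cell types also differed between the groups. The 10 microglia markers summed to 13.96 to 16.9 CPM in the Con libraries, 6.21 to 8.31 CPM in the Exo libraries and 12.4 to 16.9 CPM in the pLV-Exo-Wnt5a libraries, so they too were lowest in the Exo group. Of the 8 tested, 4 were lower at an unadjusted p under 0.05 in Exo versus Con (50%, against 6.01% of all genes) and 5 were higher in pLV-Exo-Wnt5a versus Exo (62.5%, against 5.07%). The 12 astrocyte markers summed to 5450 to 6541 CPM in Con, 5347 to 5496 CPM in Exo and 6956 to 7345 CPM in pLV-Exo-Wnt5a libraries. Gfap alone took 2261 to 3054, 2204 to 2277 and 3969 to 4080 CPM of it. In pLV-Exo-Wnt5a versus Exo, 5 of the 12 markers were lower and 2 higher at an unadjusted p under 0.05 (41.7% and 16.7%, against 6.91% and 5.07% of all genes), and Gfap rose, with a log2FC of 0.86 (standard error 0.053, unadjusted p = 6.66e-09, Q = 3.36e-05). The 12 neuron markers summed to 2951 to 2978 CPM in Con, 2993 to 3466 CPM in Exo and 2758 to 3518 CPM in pLV-Exo-Wnt5a libraries. Of them, 9 were higher and 0 lower at an unadjusted p under 0.05 in Exo versus Con (75% higher, against 8.92% of all genes). In pLV-Exo-Wnt5a versus Exo 0 were higher and 3 lower (25% lower, against 6.91%). Among them Dcx, a microtubule protein of young neurons, had a log2FC of -0.60 (standard error 0.081, unadjusted p = 1.64e-05, Q = 0.0113). The 10 markers of neural stem cells were all tested and summed to 3713 to 3963, 3152 to 3731 and 3579 to 4606 CPM in the same order of groups. Of them, 0 were higher and 3 lower at an unadjusted p under 0.05 in Exo versus Con (30% lower, against 6.01% of all genes), and 2 were higher and 0 lower in pLV-Exo-Wnt5a versus Exo (20% higher, against 5.07%), where Vim, an intermediate filament of stem cells and astrocytes, had a log2FC of 0.62 (standard error 0.11, unadjusted p = 0.000149, Q = 0.0389). The part of these cells in the values of the lineage genes was not tested.

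Schwann cells share Sox10, Mbp, Mag, Mal, Cnp and Gjc3 with oligodendrocytes. Of the Schwann cell markers, Pmp2 had at most 19 counts in any library, Cdh19 at most 15 and Foxd3 at most 1. The 12 markers summed to 96.0 to 99.5 CPM in Con, 90.98 to 104 CPM in Exo and 100.3 to 108 CPM in pLV-Exo-Wnt5a libraries, of which Pou3f1, also made by neural cells, took 33.6 to 41.5 CPM. At an unadjusted p under 0.05, 0 of 7 tested passed in Exo versus Con, 1 of 8 was higher in pLV-Exo-Wnt5a versus Exo and 0 of 8 passed in pLV-Exo-Wnt5a versus Con. Fibroblasts share Pdgfra and mural cells share Cspg4 with precursors. The 9 fibroblast markers summed to 45.8 to 55.7, 40.6 to 46.8 and 39.6 to 49.7 CPM in the 3 groups, and 2 of 7 tested were lower at an unadjusted p under 0.05 in Exo versus Con (28.6%, against 6.01% of all genes). The mural marker Rgs5 had at most 12 counts, and the 10 mural markers summed to 213 to 274, 154 to 183 and 196 to 225 CPM, most of it Notch3. Of 5 mural markers tested, 2 were lower at an unadjusted p under 0.05 in Exo versus Con (40%, against 6.01% of all genes, median log2FC -0.47). In pLV-Exo-Wnt5a versus Exo 2 were higher (40%, against 5.07%, median 0.32), with 4 log2FC above 0 and 1 below. In pLV-Exo-Wnt5a versus Con 1 was higher and 1 lower (20% each, against 4.2% and 4.15%, median -0.16). The mural sum, most of it Notch3, was thus lowest in the Exo group, while single markers differed. The part of these cells in the values of the members was not tested.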

How the data were processed

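RNA-seq was read from 9 libraries, 3 per group. The table deposited by the authors holds raw read counts as whole numbers, 1 row per gene. The paper's methods name HISAT2 for the alignment and DESeq2 for the tests, the submitters' processing notes name Bowtie2, RSEM 1.3.1 and DESeq2 1.4.5, and the genome build is not given in the sources used here. RSEM is a counting program, and which of these tools made the table is not stated. The cells are described as rat, but gene symbols and NCBI numbers in the table are those of the mouse. How shared reads, strand and overlapping genes were counted is not stated.

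Genes were kept by filterByExpr on the 6 libraries of a comparison, normalized by TMM and tested across all genes in edgeR 4.0.16 (quasi-likelihood, R 4.3.3), with Benjamini-Hochberg adjusted p-values (Q). Standard errors were taken from the test statistic. CPM used TMM factors over all 9 libraries. The members, stages and lists were chosen with earlier results of these data known. Values per library are given for members with an unadjusted p under 0.05 in any comparison and for the 3 members of each stage with the highest mean CPM; of other lists, at most 4 genes by smallest p and defining markers are named. Pou3f1 and Notch3 were chosen after their values were seen. Replicates differed by more than sampling noise (chi-square per degree of freedom 7.68 to 52.1).

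The alternatives were RLE normalization, DESeq2 1.42.0, no low-count filter, a minimum of 10 counts per library, a joint fit of all 9 libraries, the replicate number as a block, and leaving out each library. The tests were first run on simulated counts with known changes.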

Additional observations from a re-analysis of the deposited data

How the results depend on the processing

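All 288 refitted log2FC of the 24 named results for single members kept their sign, and 15 of them had Q under 0.05. These results were picked for an unadjusted p under 0.05 in the same libraries, so a kept sign is no independent check. The number of members at Q under 0.05 was 0 in the comparisons as reported. For Exo versus Con it was 2 with DESeq2 (Mbp and Mag), 4 without the low-count filter (Mbp, Mag, Lhfpl3 and Ugt8a) and 0 to 2 with 1 library left out, the 2 without Con replicate 3. For pLV-Exo-Wnt5a versus Exo it was 2 with DESeq2 (Gpr17 and Mag), 4 without the filter (Gpr17, Mbp, Mag and Lhfpl3), 1 with the replicate number as a block (Mag, Q = 0.0412) and 0 in every fit with 1 library left out. For pLV-Exo-Wnt5a versus Con it was 0 in every setting run. Calls over all genes rose as well, for Exo versus Con from 1 to 211 with DESeq2 and 446 without the filter, and for pLV-Exo-Wnt5a versus Exo from 66 to 411 and 397, and to 116 with the block. At an unadjusted p under 0.05, the count for Exo versus Con was 5 with the replicate block (9.4% of all genes) and 3 to 11 with 1 library left out (8.64% to 23.4%). For pLV-Exo-Wnt5a versus Exo it was 5 to 14 with 1 library left out (8.55% to 13.4%). For pLV-Exo-Wnt5a versus Con it was 10 without the filter (8.15%) and 2 to 10 with 1 library left out (4.07% to 14.4%). The median log2FC of the myelin members was 0.056 in pLV-Exo-Wnt5a versus Exo with at least 10 counts in every library. With 1 library left out it ran from -0.089 to -0.018 for Exo versus Con, between 0.051 and 0.17 in pLV-Exo-Wnt5a versus Exo, and between -0.0050 and 0.13 in pLV-Exo-Wnt5a versus Con. The committed median ran from -0.068 to 0.045 for pLV-Exo-Wnt5a versus Exo. The cause of these differences was not tested. Deviations from the group means of same-numbered replicates had r between -0.244 and 0.0895 across genes (9 pairs), and 2 of 9 libraries correlated best with their own number. No pairing by number was seen in these values, but 3 libraries per group are too few to exclude it. Genes at a few counts per library, such as Mog and Opalin, were below what this depth can compare.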

Other observations

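Signals known to act on oligodendrocyte precursors were read from lists of 22 promoting and 20 restraining genes, of which 0 had Q under 0.05 in any comparison with edgeR. With DESeq2, an adjusted p under 0.05 was found in pLV-Exo-Wnt5a versus Exo for 2 of 20 promoting genes (Erbb4 and Fgfr3) and 1 of 19 restraining genes (Tnr). DESeq2 called 2.72% of all genes there. In pLV-Exo-Wnt5a versus Con 1 of 19 restraining genes (Hes5) passed, beside 0.477% of all genes. Of 19 promoting genes tested in Exo versus Con, 1 was higher and 3 lower at an unadjusted p under 0.05 (5.26% and 15.8%, against 8.92% and 6.01% of all genes). Of 20 tested in each of the other comparisons, 1 was higher and 2 lower in pLV-Exo-Wnt5a versus Exo (5% and 10%, against 5.07% and 6.91%), and likewise in pLV-Exo-Wnt5a versus Con (against 4.2% and 4.15%). These shares were near those of all genes or rest on 1 to 3 genes. Erbb4, a neuregulin receptor, was measured at 5.56 ± 0.0583, 7.60 ± 0.642 and 4.12 ± 0.780 CPM in the order Con, Exo, pLV-Exo-Wnt5a (SD, n = 3 each). Its log2FC was -0.87 (standard error 0.17, unadjusted p = 0.000426, Q = 0.0638) for pLV-Exo-Wnt5a versus Exo and 0.44 (standard error 0.15, unadjusted p = 0.0165, Q = 0.277) for Exo versus Con. Fgfr3, a fibroblast growth factor receptor of precursors and astrocytes, was measured at 184 ± 16.8, 170.2 ± 4.20 and 143 ± 9.15 CPM and was lower in all 3 pLV-Exo-Wnt5a libraries than in the Con libraries, with a log2FC of -0.37 (standard error 0.10, unadjusted p = 0.00238, Q = 0.354). DESeq2 called Fgfr3 against the Exo group but not against the Con group. Lif, a cytokine that supports survival of oligodendrocytes, lay between 0.0257 and 0.183 CPM in the Con libraries, between 0.181 and 0.606 CPM in the Exo libraries and between 0.533 and 0.959 CPM in the pLV-Exo-Wnt5a libraries, with at most 38 counts in any library.

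Of 19 restraining genes tested, 2 were higher and 1 lower at an unadjusted p under 0.05 in Exo versus Con (10.5% and 5.26%, near the shares of all genes). In pLV-Exo-Wnt5a versus Exo 2 were higher and 3 lower (10.5% and 15.8%, against 5.07% and 6.91% of all genes), and in pLV-Exo-Wnt5a versus Con 1 was higher and 1 lower (5.26% each, near the shares of all genes). Hes5, a Notch target that holds back differentiation, was measured at 168 ± 14.7, 137 ± 3.56 and 128 ± 1.79 CPM in the same order. Its log2FC was -0.30 (standard error 0.083, unadjusted p = 0.00462, Q = 0.265) for Exo versus Con and -0.41 (standard error 0.09, unadjusted p = 0.000746, Q = 0.224) for pLV-Exo-Wnt5a versus Con, and all libraries of both exosome groups were below all Con libraries. Tnr, a matrix protein made by oligodendrocytes and some neurons, was measured at 207 ± 33.1, 227 ± 9.08 and 173 ± 24.1 CPM, with a log2FC of -0.38 (standard error 0.09, unadjusted p = 0.00149, Q = 0.111) for pLV-Exo-Wnt5a versus Exo. Whether Tnr restrains or promotes the lineage in these cells was not tested, so its place in this list is uncertain. The median log2FC of the restraining list was 0.18 in Exo versus Con and -0.21 in pLV-Exo-Wnt5a versus Exo, 2 comparisons that share the Exo libraries. The interquartile ranges of all genes were -0.14 to 0.23 and -0.13 to 0.096. In pLV-Exo-Wnt5a versus Con the median of the list was 0.0043. Hes5 is also in the list of neural stem cell markers, and Fgfr3 in that of astrocyte markers.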
